A study of Homo sapiens with 10 samples.

Results

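The 200 numbered zinc finger genes described here carry symbols of the form ZNF plus a number, with or without a closing letter. They were chosen by expression: of 526 such symbols in the table, the 200 with the highest mean over the 4 untreated libraries were taken. The table lists 26040 genes in all. The levels that selected them ran from 246.3 to 5377 scaled fragments, with a median of 496.4, and are a description only. ZNF761, ZNF155 and ZNF662 stood just inside the limit, and ZNF286A (246.1), ZNF319 and ZNF813 just outside it. When ranked by the nutlin-3a libraries instead, 173 of the 200 stayed among the 200 highest.

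The cells were U2OS, an established human osteosarcoma line, and every library came from cells that had taken up a lentiviral shRNA and been selected with 1 µg/ml puromycin. Either a negative control shRNA or 1 of 3 shRNAs against ARVCF, a catenin of cadherin junctions, was expressed, and by the labels each line is a single clone. Part of the cultures received nutlin-3a at 10 µM for 24 h, which releases p53 from its ubiquitin ligase MDM2, and the rest went untreated. There were 3 untreated and 3 nutlin-3a libraries of the shARVCF lines, 1 per line, against 1 untreated and 3 nutlin-3a libraries of the single control line, 2 of which carry later library numbers. An effect of ARVCF knockdown and a trait of the control clone cannot be told apart. The labels do not say whether the 3 control libraries came from separate cultures, so the spread behind the p-values is that of these libraries and may be technical.

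Proteins of this family bind DNA, and some bind RNA, through repeated C2H2 fingers that each hold a zinc ion. Many carry a KRAB domain at the amino end. KRAB recruits the corepressor TRIM28, which in turn gathers the histone methyltransferase SETDB1, HP1 proteins, the NuRD complex and DNA methyltransferases, and the bound region is silenced. Their best known targets are transposable elements and imprinted regions. The genes arose by repeated duplication and lie in clusters, above all on chromosome 19, so that fragments can be hard to assign among close copies. p53, which nutlin-3a stabilises, activates arrest genes directly. It lowers cell cycle genes largely through CDKN1A and the repressor complexes that act at E2F and CHR promoter sites.

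The sequences of the 200 genes were described beside those of the rest of the family, without a test. A KRAB A-box-like stretch was found in 92 of those with a coding transcript (46.5%), against 229 of 307 (74.6%) of the other numbered zinc finger genes. The chosen genes held a median of 10 C2H2 fingers and a maximum of 34, and the others a median of 11 and a maximum of 39. Chromosome 19 held 62 of them (31.0%), compared with 58.3% of the others. Transcripts were long, with a median spliced length of 4642 bases against 3351 for all tested genes, and their median GC content was 44.4% against 48.8%.

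Promoter sequences of 4 genes that fell under nutlin-3a are shown because 3 of them share a stretch at the start site, and the fourth holds matches to cell cycle motifs. They are from RefSeq (GRCh38.p14) and run 5′ to 3′ from 250 bases before the annotated start to 30 bases after it. In ZNF367 (chr9:96418341-96418620, minus strand) the capitals mark a CHR-like and an E2F-like match. In ZNF107 (chr7:64665883-64666162, plus strand), ZNF92 (chr7:65373605-65373884, plus strand) and ZNF519 (chr18:14132406-14132685, minus strand) they mark the 12 bases found in all 3 and in ZNF736. 
ZNF367: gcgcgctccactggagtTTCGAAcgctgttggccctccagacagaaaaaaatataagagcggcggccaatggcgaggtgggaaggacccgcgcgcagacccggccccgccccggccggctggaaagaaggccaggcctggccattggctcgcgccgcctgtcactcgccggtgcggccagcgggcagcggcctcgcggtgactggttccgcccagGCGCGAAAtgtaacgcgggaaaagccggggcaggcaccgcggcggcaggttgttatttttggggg
ZNF107: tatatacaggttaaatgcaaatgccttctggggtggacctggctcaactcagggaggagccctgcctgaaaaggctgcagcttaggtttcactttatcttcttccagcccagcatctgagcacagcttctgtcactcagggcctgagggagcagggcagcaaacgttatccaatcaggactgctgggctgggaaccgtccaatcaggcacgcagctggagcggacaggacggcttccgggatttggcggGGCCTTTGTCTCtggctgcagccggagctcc
ZNF92: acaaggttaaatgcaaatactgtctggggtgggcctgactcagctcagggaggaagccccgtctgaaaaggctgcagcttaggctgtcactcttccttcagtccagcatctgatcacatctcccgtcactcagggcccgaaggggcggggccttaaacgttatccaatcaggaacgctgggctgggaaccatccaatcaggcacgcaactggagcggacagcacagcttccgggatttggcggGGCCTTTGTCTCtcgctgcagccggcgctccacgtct
ZNF519: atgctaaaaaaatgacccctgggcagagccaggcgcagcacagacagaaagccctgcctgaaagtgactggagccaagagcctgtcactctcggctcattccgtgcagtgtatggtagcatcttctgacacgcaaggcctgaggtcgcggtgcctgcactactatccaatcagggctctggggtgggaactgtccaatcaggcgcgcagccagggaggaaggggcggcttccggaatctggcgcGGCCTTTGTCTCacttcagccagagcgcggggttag

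Over 300-base windows, ZNF107 and ZNF92 had 84.7% of bases in common and a run of 31 identical bases. The 12-base run GGCCTTTGTCTC occurred, on either strand, in 40 of 35116 RefSeq promoter windows (0.114%), and those 40 covered 21 of the 422 numbered zinc finger symbols with a window. The motifs searched on both strands were TTTGAA and TTCGAA (CHR-like), TTTGGCGC and TTTCGCGC (E2F-like), and the p53 consensus with at most 2 mismatches. RefSeq windows were found for 171 of the 200 genes, 231 windows in all. A CHR-like match was present in 13.0% of them and in 16.4% of all windows. For the E2F-like letters the shares were 3.03% and 1.15%, and for the p53 consensus 0.433% and 0.649%. A match describes the letters only.

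The libraries had similar totals, between 17821750 and 19903777 scaled fragments. ARVCF was lower in the shARVCF lines, at 292, 343 and 338 against 618 untreated. With drug it was at 1284, 1188 and 1232 against 2928, 2571 and 2376 (2.12-fold lower, adjusted p = 3.14e-06, limma). The untreated difference was 1.91-fold and was not called. MDM2 rose 9.49-fold in the shARVCF lines and 4.66-fold in the control line, and CDKN1A 8.64-fold and 7.97-fold. With the correction for length and GC described further on, MDM2 rose 9.38-fold and 10.3-fold, and CDKN1A 8.53-fold and 5.84-fold. Of the osteoblast-lineage markers RUNX2, SPARC and COL1A1 were present, ALPL was at 123 to 1502, and COL1A2 stayed at or under 15.5. Of the markers of other cells PTPRC, CD3E and HBB were at most 12.7, while of the epithelial markers KRT8 and KRT18 were at 4204 or more, EPCAM at 43.8 to 142.5 and CDH1 at 2.31 to 34.7.

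Together the 200 genes made up 0.849% to 0.906% of the untreated libraries and 0.82% to 0.889% of the shARVCF libraries under nutlin-3a. In the control line under nutlin-3a the share was 0.573% to 0.594%, below every other library. In bulk RNA, fewer cells expressing a gene and less of its RNA per cell cannot be told apart.

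With nutlin-3a, 31 of the 200 genes rose in the shARVCF lines (15.5%, against 21.0% of all 14955 tested genes) and 42 fell (21.0%, against 21.7%), with limma at an adjusted p under 0.05. Their median change was -0.05 on the log2 scale, and that of all tested genes was 0.00. These shares lay near the background or below it. Upper-quartile scaling turned the balance, with 34 higher and 30 lower. In the control line 34 rose (17.0%, background 25.1%) and 110 fell (55.0%, background 32.0%), with a median of -0.61 against -0.10. Both comparisons use the untreated libraries that chose the genes. The 200 highest by the nutlin-3a libraries instead gave 44 higher and 28 lower in the shARVCF lines, and 48 higher and 86 lower in the control line. The balance in the shARVCF lines thus turned with the libraries used for the choice. The share of falls also moved with transcript length, as described further on.

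**Figure D1:**
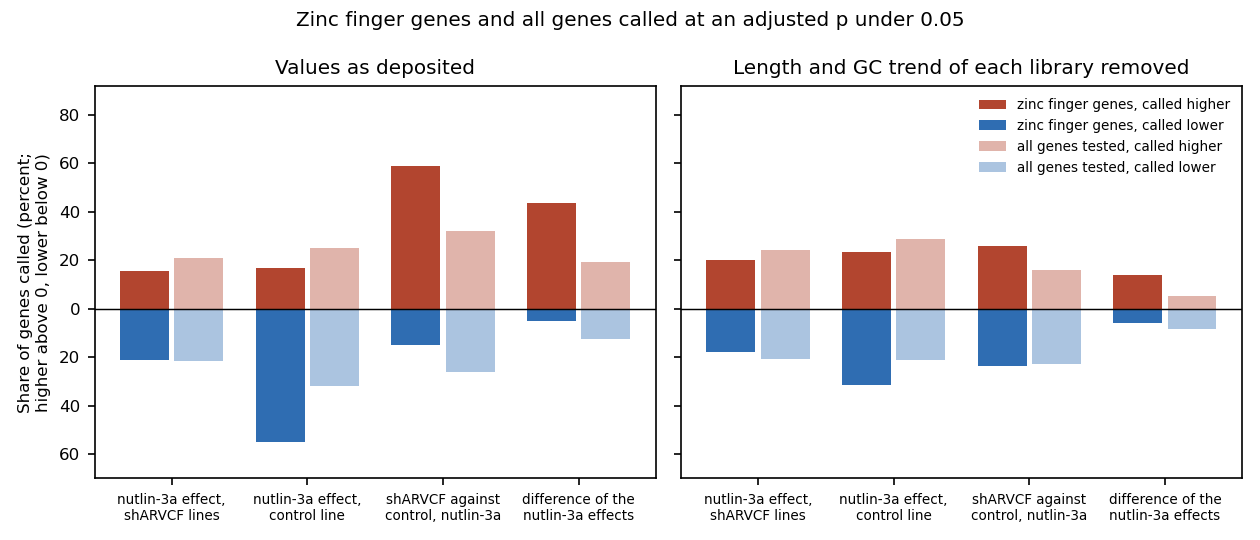
Shares of the 200 zinc finger genes (dark bars) and of all tested genes (pale bars) called higher (above 0) or lower (below 0) in 4 comparisons, in percent, for the values as deposited and after a correction for length and GC. The 55.0% called lower in the control line became 31.5% after the correction.

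Among the 200 genes the deepest fall in either kind of line was that of ZNF367, a transcription factor with few fingers and no KRAB stretch. It was at 495 in the untreated control library and at 645, 613 and 541 in untreated shARVCF lines 1 to 3. Under nutlin-3a it was at 10.0, 3.86 and 2.59 in the control libraries and at 15.5, 25.9 and 35.2 in the shARVCF lines. The treated and untreated ranges lay far apart, and every treated control library was below every treated shARVCF line. The change was -4.57 ± 0.39 (log2, SE) in the shARVCF lines (adjusted p = 1.87e-06) and -6.43 ± 0.55 in the control line (adjusted p = 1.72e-06). Its promoter holds TTCGAA 233 bases and GCGCGAAA 35 bases before the start.

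ZNF107, ZNF92 and ZNF736, KRAB zinc finger genes of chromosome 7, fell in both kinds of line. ZNF107 was at 323 in the untreated control library and at 400, 381 and 434 in the untreated shARVCF lines. With drug it was at 24.8, 20.6 and 29.1 in the control libraries and at 78.3, 84.2 and 117.7 in the shARVCF lines. All treated libraries were below all untreated ones, and those of the control line were lowest. The changes were -2.13 ± 0.20 in the shARVCF lines and -3.66 ± 0.28 in the control line (adjusted p = 3.44e-06 and 5.82e-07). ZNF92 changed by -1.92 and -3.36, and ZNF736 by -1.8 and -3.35, in the same order.

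These genes lie in a stretch of chromosome 7 that holds 8 tested numbered zinc finger genes. Of the neighbours outside the 200, ZNF680 changed by -2.34 and -3.23 and ZNF273 by -2.43 and -3.35 in the shARVCF and control lines. ZNF138 changed by -0.73 (adjusted p = 0.0251) and -1.01. ZNF727 (0.35, adjusted p = 0.314) and ZNF117 (0.05, adjusted p = 0.911) were not called in the shARVCF lines, and both fell in the control line, by 2.38 and 1.19 on the log2 scale. Corrected for length and GC, the control value of ZNF117 was 0.24 (adjusted p = 0.669), and ZNF138 was called in neither (-0.45 and -0.45, adjusted p = 0.0979 and 0.234). Neighbours thus did not all move by the same amount. These are close copies, and how the authors' software divided fragments among them was not tested.

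**Figure D2:**
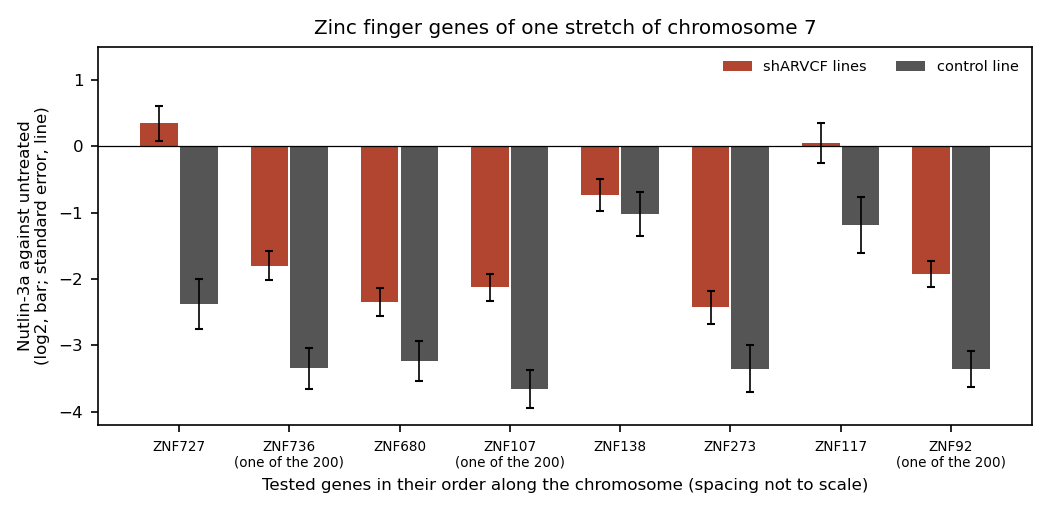
Log2 change with nutlin-3a (bars) and its standard error (lines) for the 8 tested numbered zinc finger genes of the chromosome 7 stretch, in gene order with spacing not to scale, in the shARVCF lines and the control line. ZNF736, ZNF680, ZNF107, ZNF273 and ZNF92 fell by 1.8 or more on the log2 scale in both, while ZNF727 and ZNF117 were not called in the shARVCF lines.

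ZNF519, a KRAB zinc finger gene of chromosome 18, ranked 225 and so lies outside the 200. Untreated it was at 211 in the control library and at 249, 166 and 224 in the shARVCF lines. With drug the control libraries were at 14.1, 0.0025 and 0.0025 and the shARVCF lines at 0.0085, 11.0 and 0.071. All 6 treated libraries were below all 4 untreated ones, and 4 of the 6 were listed near 0. The log2 change was -6.49 (adjusted p = 0.0029) and -6.42 (adjusted p = 0.0126) with a pseudocount of 1, and in the shARVCF lines -8.48 with 0.1 and -4.10 with 10, so its size is set by the pseudocount. Without the 2 later control libraries the control value was -3.82 (adjusted p = 0.0865), so that call rests on them.

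The 12-base run was noticed after the values were seen, and the 4 genes it was found in are left out of the following counts. Of the other 17 symbols with the run, 8 were tested. Among them 4 fell and 0 rose in the shARVCF lines, with a median of -0.96, and in the control line 6 fell and 0 rose, with a median of -2.08. The 375 tested genes of the family without the run had medians of 0.00 and -0.47, with 51 higher and 51 lower and then 52 higher and 162 lower. With the correction for length and GC the medians with the run were -0.73 and -1.27. ZNF680 and ZNF273, the chromosome 7 neighbours whose falls were already seen, are among the 8. The 8 are therefore no independent check. The others called in the shARVCF lines were ZNF695 of chromosome 1 (-3.43 and -2.82) and ZNF682 (-1.34 and -0.82). In those lines ZNF124 (-0.50), ZNF254 (-0.58), ZNF135 (0.23) and ZNF91 (0.27) were not called. Genes with the run are related by descent and are not independent of each other.

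The other deep falls in both kinds of line were in ZNF850 (-1.93 and -2.83), ZNF551 (-1.57 and -3.13), ZNF678 (-1.23 and -3.04) and ZNF395 (-1.19 and -2.15). ZNF551 was at 348 in the untreated control library and 363, 312 and 360.2 in the untreated shARVCF lines. It dropped to 38.1, 39.9 and 38.9 in the control line and to 117, 114 and 116 in the shARVCF lines. The 3 libraries of each treated group were nearly equal, and the groups stood clear of each other. Of the 42 genes lower in the shARVCF lines, 36 (85.7%) were also among the 110 lower in the control line (32.7% of those). Of all 200 genes 55.0% were lower in the control line. The overlap over all tested genes was not counted, so nothing is read from this one. The comparisons use different libraries of different lines.

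Among the genes that rose, ZNF114, a short KRAB gene of chromosome 19, moved most. It was at 224 untreated in the control line and at 2171, 2425 and 2867 with drug. In shARVCF lines 1 to 3 it went from 139, 424 and 333 to 1635, 3871 and 2713. Every line rose, and the lines differed more from each other in level than in change. The change was 3.25 ± 0.46 (adjusted p = 0.00101) and 3.46 ± 0.65 (adjusted p = 0.00291) on the log2 scale.

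Genes reported elsewhere as p53 targets also rose. ZNF385A, which binds p53 and directs it to arrest genes, rose from 573, 534 and 591 to 1159, 1061 and 1219 in the shARVCF lines. In the control line it rose from 543 to 899, 1250.0 and 999. The changes were 1.02 ± 0.12 and 0.94 ± 0.17, and no treated library overlapped an untreated one. ZNF561 rose by 1.14 ± 0.11 and 0.95 ± 0.16, and ZNF337 by 1.03 ± 0.13 and 1.52 ± 0.19, on the same scale. For none of the 3 was the difference between the kinds of line called (smallest adjusted p = 0.127), which does not show that the responses were equal. After the length and GC correction that of ZNF337 was called (-0.78, adjusted p = 0.0458).

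ZNF219, a transcriptional repressor, had the smallest error of the risers: its change was 1.14 ± 0.08 in the shARVCF lines and 1.38 ± 0.11 in the control line. Its levels went from 1321, 1322 and 1276 to 2906, 2816 and 2892, and in the control line from 1592 to 4104, 4382 and 3984. ZNF622, a factor of ribosome assembly, rose by 0.79 and 1.55, and ZNF195 by 0.73 and 0.99. ZNF469, whose loss in people causes brittle cornea syndrome, rose by 1.29 in the shARVCF lines (adjusted p = 0.000516) and had a change of 0.36 in the control line (adjusted p = 0.312). The difference for ZNF469 was not called (adjusted p = 0.0733). Of the 31 genes higher in the shARVCF lines, 17 (54.8%) were also among the 34 higher in the control line (50% of those). Of all 200 genes 17.0% were higher in the control line. Here too the overlap over all tested genes was not counted, and nothing is read from it.

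**Figure D3:**
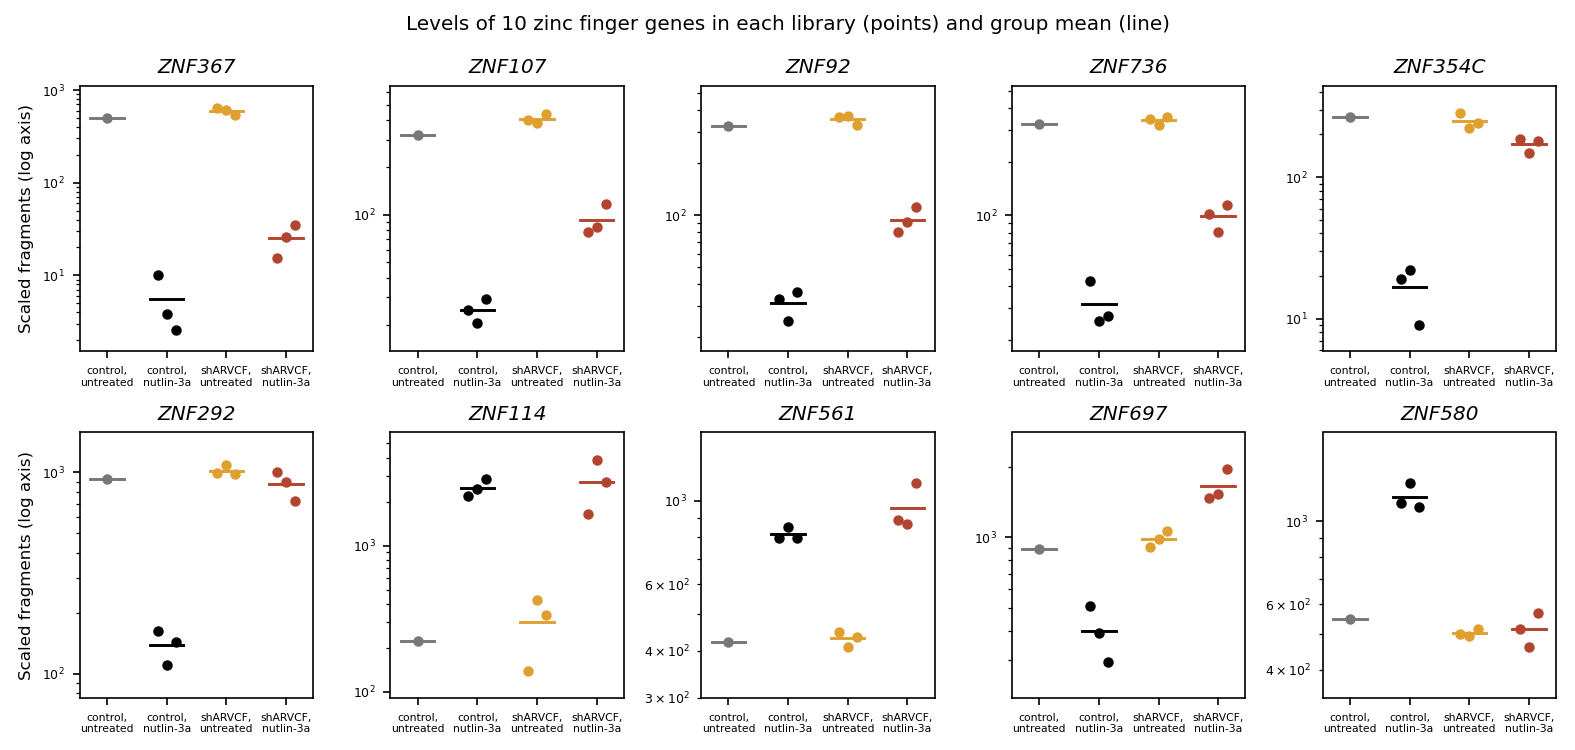
Scaled fragments of 10 zinc finger genes in each library (points, log axis) and the mean of each group (lines). ZNF367, ZNF107, ZNF92 and ZNF736 were lower in all treated libraries, while ZNF354C and ZNF292 were far lower in the treated control line than in the treated shARVCF lines, and ZNF114 and ZNF561 were higher in all treated libraries.

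Another set fell deeply in the control line, and its response differed between the kinds of line. ZNF354C, a KRAB gene of chromosome 5, was at 268 in the untreated control library and at 19.1, 21.9 and 9.07 with drug (-4.01 ± 0.39, adjusted p = 3.51e-06). In the shARVCF lines it went from 285, 221 and 241 to 184, 147 and 181, a change of -0.54 ± 0.28 that was not called (adjusted p = 0.137). The treated control libraries lay below all others, and the difference of the changes was 3.47 ± 0.48 (adjusted p = 0.000279). ZNF292, a large protein of the nucleus, was at 928 and then 162, 111 and 144 in the control line, and at 987, 1081 and 980 and then 1006, 893 and 723 in the shARVCF lines. For ZNF281, a repressor tied to epithelial-mesenchymal transition, the control line went from 1626 to 313, 303 and 280.2. ZNF281 in the shARVCF lines went from 1766, 1491 and 1742 to 1535, 1338 and 1577. For both genes the treated control libraries again lay below all others, and the differences of the changes were 2.52 and 2.27 (adjusted p = 4.62e-05 and 8.71e-06). ZNF445, which guards imprinted regions, changed by -2.29 in the control line and -0.24 in the shARVCF lines.

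Among the 10 most abundant genes the size of the fall varied. ZNF532, the highest, went from 5540 to 1506, 1558 and 1380 in the control line (-1.90 ± 0.15) and from 5917, 5029 and 5021 to 4803, 4102 and 3975 in the shARVCF lines (-0.31 ± 0.10). ZNF609 changed by -1.73 and -0.25 and its paralogue ZNF608 by -2.66 and -0.48, control line first. ZNF207, a spindle protein that binds BUB3, changed by -0.50 and -0.36, and its treated groups did not differ by the test (0.09, adjusted p = 0.332). All 10 were called lower in the control line, where 32.0% of all tested genes were. The untreated level that put them first is also the level they fell from, so nothing is read from this count. The shARVCF lines had 6 of these 10 called lower (background 21.7%), and ZNF609, ZNF664, ZNF638 and ZNF106 were not.

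The shARVCF and control lines under nutlin-3a were compared on libraries that played no part in choosing the genes. Here 118 of the 200 were higher in the shARVCF lines than in the control line (59.0%, background 32.3%) and 30 were lower (15%, background 26.1%). The median difference was 0.49 log2, against 0.06 over all tested genes. The largest were in ZNF354C (3.36 ± 0.28, 10.3-fold), ZNF292 (2.65 ± 0.15), ZNF281 (2.31 ± 0.10), ZNF81 (2.23 ± 0.16), ZNF608 (2.1 ± 0.12), ZNF697 (2.08 ± 0.18), ZNF445 (2.05 ± 0.11) and ZNF585A (1.87 ± 0.15). Without the 2 later control libraries 19 were lower in place of 30.

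The 8 genes with the largest differences the other way had transcripts of 1412 to 3857 bases, shorter than the median of the 200. ZNF580 was at 1123, 1265 and 1092 in the treated control libraries, after 548 untreated, and at 515, 460 and 569 in the treated shARVCF lines, after 499, 493 and 515. The treated control libraries stood above all others. The difference was -1.17 ± 0.11 (adjusted p = 1.96e-06). ZNF444 differed by -1.18 and ZNF205, a KRAB gene, by -0.99, and ZNF787, ZNF428, ZNF579, ZNF853 and ZNF358 by -0.97 to -0.87.

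Without drug none of the 200 differed between shARVCF and control (0 called, smallest adjusted p = 1.0, limma), where 0.0201% of all genes were called. At an unadjusted p under 0.05 there were 4 (2.0%, against 1.6% of all genes). With 1 untreated control library even the 1.91-fold lower level of ARVCF was not called. Differences of that size could thus be missed, and the 0 called does not show that the lines were equal.

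The difference of the nutlin-3a effects (shARVCF minus control) was tested directly. It was positive in 87 genes (43.5%, background 19.3%) and negative in 10 (5.0%, background 12.5%). This term also uses the untreated libraries that chose the genes. The 200 highest by the nutlin-3a libraries instead gave 70 positive (35.0%) and 14 negative (7.0%). Of the 257 other numbered zinc finger genes that passed the filter, 42 were positive (16.3%) and 9 negative (3.5%). Their median difference was nevertheless 0.35 log2, beside 0.49 in the 200 and 0.07 over all tested genes. The lean to positive values was thus not particular to the 200. Opposite calls in the 2 kinds of line were made for 7 genes (3.5%), near the 2.47% of all tested genes. ZNF697, ZNF28, ZNF365, ZNF160, ZNF621 and ZNF516 rose in the shARVCF lines and fell in the control line, and ZNF787 did the reverse. ZNF697 went from 909, 986 and 1063 to 1479, 1537 and 1961 in the shARVCF lines, and from 892 to 509.5, 390.4 and 296 in the control line.

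**Figure D4:**
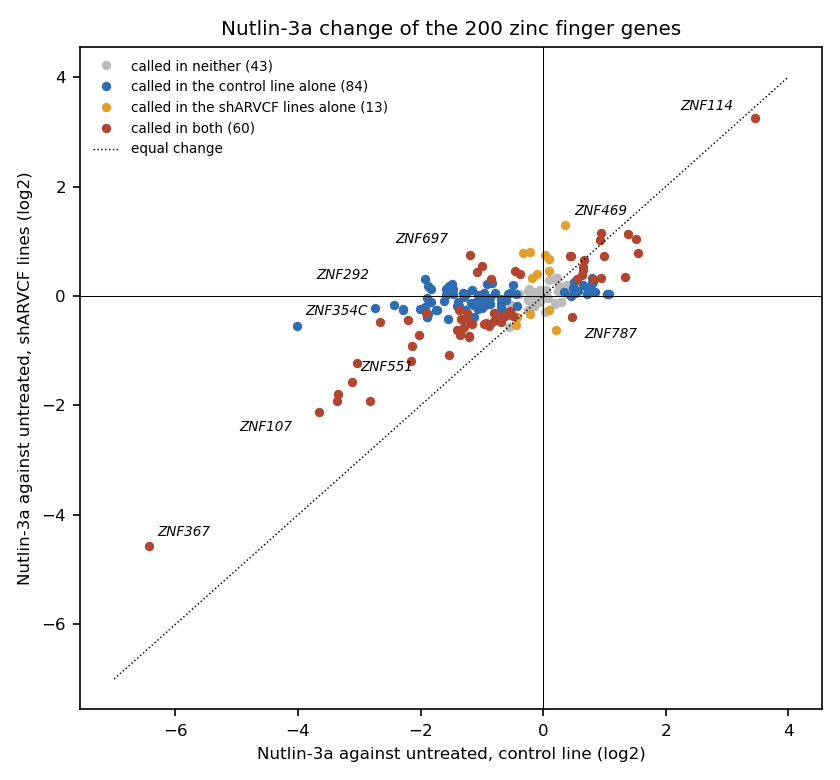
Log2 change with nutlin-3a of each of the 200 genes in the control line (horizontal) and the shARVCF lines (vertical), coloured by where it was called, with the line of equal change dotted. Most points lie along a flat band: changes from -4.01 to about 1 in the control line stand beside small changes in the shARVCF lines, with ZNF367 and ZNF114 at the ends.

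Transcript length moved with these differences. In the control line the median change was 0.32 in the shortest 50 of the 200 genes, -0.17 and -1.01 in the next groups of 50, and -1.15 in the longest 50. All tested genes within the same length bounds had medians of 0.28, -0.26, -0.59 and -0.87. In the shARVCF lines the medians were 0.03, -0.03, -0.14 and -0.08. Across the 200 genes, Spearman's rho of change with length was -0.54 in the control line and -0.12 in the shARVCF lines, and -0.43 and -0.03 over all tested genes. Genes of a sample share its library and its RNA, so these are descriptions.

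The comparisons were therefore repeated on values corrected, within each library, for spliced length and GC. Then 40 genes were higher (20%, background 24.4%) and 36 lower (18%, background 20.7%) in the shARVCF lines. In the control line 47 were higher (23.5%, background 28.7%) and 63 lower (31.5%, background 21.1%). Between the lines under drug 52 were higher (26.0%, background 15.9%) and 47 lower (23.5%, background 23.0%). The difference of effects was positive in 28 (14%, background 5.3%) and negative in 12 (6.0%, background 8.23%). The median in the control line moved from -0.61 to -0.04, and that of all genes from -0.10 to 0.10.

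**Figure D5:**
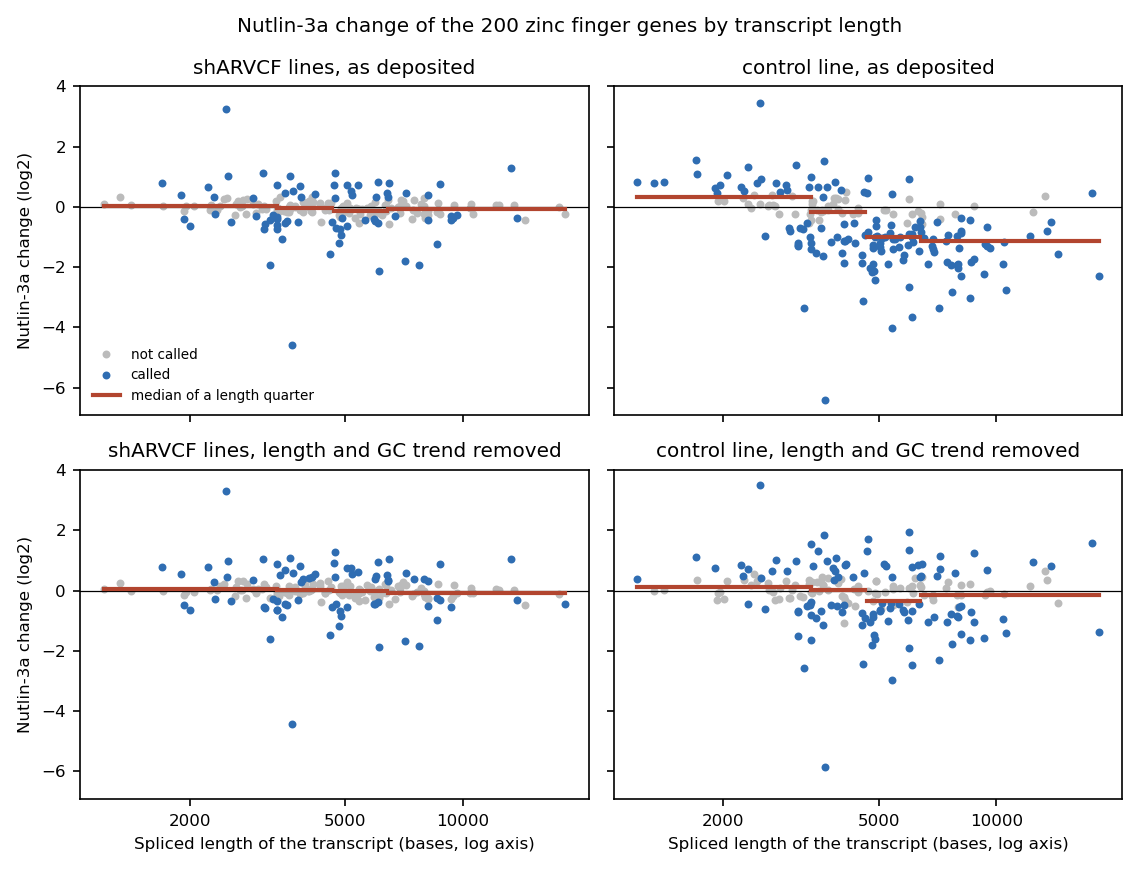
Log2 change with nutlin-3a of the 200 genes against spliced transcript length (bases, log axis), in the shARVCF lines (left) and the control line (right), as deposited (top) and corrected for length and GC (bottom). Thick lines are medians of 4 groups of 50 genes by length, which go from 0.32 to -1.15 in the control line as deposited.

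Single genes kept their calls to unequal degrees. For the shARVCF lines 31 of 31 rises and 33 of 42 falls were called again in the same direction. For the control line these were 21 of 34 rises and 60 of 110 falls, and 4 falls were called as rises. Between the lines under drug 50 of 118 higher calls held, 14 turned, and 11 of 30 lower calls held. ZNF354C (2.48), ZNF697 (1.60), ZNF281 (1.58), ZNF608 (1.41) and ZNF292 (1.38) remained higher in the shARVCF lines. ZNF207, the spindle protein, turned from 0.09 (not called) to -1.26. The correction took the length and GC of the longest annotated transcript of each gene. Whether that transcript was the one expressed was not tested, so corrected values of single genes depend on it. The falls of ZNF367 (-4.44 and -5.87), ZNF107 (-1.87 and -2.47), ZNF92 (-1.60 and -2.56) and ZNF736 (-1.68 and -2.29) held in both kinds of line, as did the rise of ZNF114 (3.31 and 3.52). Of the 7 opposite calls, that of ZNF697 alone was called in both directions again (0.76 and -0.67).

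The changes with nutlin-3a in the 3 shARVCF lines lay close together for most of the 200 genes. The range of the change over the lines had a median of 0.22 log2, it was under 1 for 197 genes, and 141 had the same sign in all 3. The changes were themselves small (median -0.05, quartiles -0.26 and 0.15). These shares were not counted over all tested genes, so a response shared by the lines is not shown. The widest range was in ZNF320, a KRAB gene of chromosome 19, which went from 438, 479 and 424 to 574, 377 and 125 in lines 1 to 3. Its group change was not called (-0.57, adjusted p = 0.383). ZNF761 went from 172, 272 and 239 to 369, 321 and 137 and was also not called. Line 3 was lowest of the treated lines in both genes.

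By structure, the 92 genes with a KRAB A-box-like stretch had 16 higher and 15 lower in the shARVCF lines (median -0.01) and 12 higher and 52 lower in the control line (median -0.68). On chromosome 19 the counts for the 62 genes were 8 and 10, then 13 and 35 (56.5% lower). The 138 genes on other chromosomes had 23 and 32, then 21 and 75 (54.3%). With the correction the control line had 12 and 14 on chromosome 19, and 35 and 49 elsewhere. It then had 26 higher and 25 lower (27.2%) with the KRAB stretch, and 19 and 38 (35.8%) without it. The corrected background there was 28.7% higher and 21.1% lower. None of these splits was tested.

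The partners of KRAB proteins were described from a list of 36 genes of the TRIM28, SETDB1, HP1, NuRD and DNA methylation machinery, of which 35 were tested. Of these, 2 rose (MTA2 and DNMT3A) and 23 fell (65.7%, against 21.7% of all genes) in the shARVCF lines, with a median of -0.47. The control line had 1 higher and 22 lower (62.9%, against 32.0%), with a median of -0.80. DNMT1, the maintenance DNA methyltransferase, went from 4326, 4175 and 4771 to 916, 969 and 982 in the shARVCF lines and from 4184 to 579, 652 and 541 in the control line. Its partner UHRF1 changed by -2.83 and -3.58 and the histone methyltransferase SUV39H1 by -3.55 and -3.15. SUV39H2 changed by -2.09 and -2.39, DNMT3B by -2.36 and -3.26, and the HP1 gene CBX5 by -1.63 and -2.05. TRIM28 itself changed by -0.78 (adjusted p = 8.76e-05, limma) and by -0.34 (adjusted p = 0.0757, not called). With the length and GC correction its changes were -0.82 and -0.71, and both were called. SETDB1 changed by -0.07 and -0.21, and neither of its changes was called. Corrected for length and GC, 22 fell (62.9%, background 20.7%) and 2 rose (5.7%, background 24.4%) in the shARVCF lines. In the control line 13 fell (37.1%, background 21.1%) and 6 rose (17.1%, background 28.7%).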

How the data were processed

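RNA of 10 libraries was sequenced after stranded mRNA preparation. Per the submitters' processing notes, bcl2fastq 1.8.3, HISAT2 2.1.0, hg38 and Cuffnorm 2.2.1 were used; annotation and strand setting are not given in the sources used here. Deposited values are a signal made by the authors: estimated fragments per gene, scaled per library and not whole, so a count test could not be used. Genes with at least 10 in at least 3 libraries (14955) were tested with limma 3.58.1 (R 4.3.3) on log2(value + 1), with 4 group means, 6 residual degrees of freedom, trended and robust moderation, and two-sided Benjamini-Hochberg adjusted p-values over all tested genes, called at 0.05. Fold changes are on that scale, which understates those of low genes. The single untreated control library is taken to have the spread of the rest. All 200 zinc finger genes passed the filter.

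Gene lengths, GC, positions, C2H2 fingers and KRAB A-box-like stretches came from the longest transcript of GENCODE 29 and its translation, because no RefSeq protein table was at hand. Of the symbols, 24016 matched by name, 716 by another name and 1308 not at all. The length and GC correction removed a spline (4 degrees of freedom) per library over 14733 genes. Residuals of the untreated and treated libraries of the same shARVCF line correlated (r 0.275, 0.288 and 0.327 across genes), so the labels' line numbers pair them. Those of different lines (-0.204 to -0.086) are pushed below 0 by taking out each group mean and add nothing to this. The fit was tested on simulated data.

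The members, lists and tests were chosen with earlier results of these data known. Named were ZNF519, ZNF385A, ZNF337 and ZNF561, the 10 most abundant, the 6 genes around the limit of the ranking, the 8 highest and 8 lowest called changes per comparison (mean at least 50, groups not overlapping except for the difference of effects), the 3 widest over the shARVCF lines, up to 6 opposite calls, and up to 8 partners. ZNF516, TRIM28, SETDB1, MTA2, DNMT3A, ZNF695 and the chromosome 7 neighbours were named after their values were seen. Alternatives were pseudocounts of 0.1 and 10, no filter, TMM and upper-quartile factors, the length and GC correction, the first library series, members ranked by the nutlin-3a libraries, all numbered zinc finger genes that pass, each library left out, and a block on shRNA line.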

Additional observations from a re-analysis of the deposited data

Results flagged for a closer look

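The nutlin-3a effect differed between the shARVCF lines and the control line, by the interaction term in limma at an adjusted p under 0.05, for 35 of the named genes. Part of these genes were named because they were called with the largest changes in this same comparison, so nothing is read from counts of named genes. Of all tested genes 19.3% were called positive and 12.5% negative. The difference (shARVCF minus control, log2) was positive for 26 of the 35. It was 3.47 for ZNF354C, 2.52 for ZNF292, 2.27 for ZNF281, 2.22 for ZNF81, 2.18 for ZNF608, 2.05 for ZNF445, 2.02 for ZNF236, 1.96 for ZNF585A and 1.94 for ZNF697. It was 1.81 for ZNF678, 1.59 for ZNF532, 1.56 for ZNF551, 1.55 for ZNF736, 1.54 for ZNF107, 1.54 for ZNF28, 1.51 for ZNF365, 1.49 for ZNF609 and 1.44 for ZNF92. It was 1.28 for ZNF638, 1.26 for ZNF106, 1.15 for ZNF160, 1.13 for ZNF654, 1.03 for ZNF468, 0.91 for ZNF621, 0.85 for ZNF664 and 0.66 for ZNF146.

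For 9 genes the difference was negative: -0.50 for ZNF853, -0.68 for ZNF358, -0.72 for ZNF32, -0.77 for ZNF428, -0.83 for ZNF511, -0.86 for ZNF787, -1.0 for ZNF205, -1.02 for ZNF444 and -1.05 for ZNF580. After removal of the length and GC trend 14 of the 35 were still called.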

How the results depend on the processing

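Of the alternative values for shares of genes called, 186 stayed within 1.5 times the main value and 10 did not. The 186 include the comparison without drug, where the share was 0.0 in every setting and counted as unchanged. With the length and GC trend removed, 31.5% were lower in the control line, 26.0% higher and 23.5% lower between the lines under drug, and 14% positive for the difference of effects. With that correction and the replicate block on shRNA line together, chosen after seeing the data, 26.5% were higher and 34.0% lower in the control line, and the difference of effects was positive in 17.0% and negative in 8.0%. The first library series alone gave 9.5% lower between the lines under drug, and all 457 numbered zinc finger genes that passed gave 28.23% positive for the difference of effects. The replicate block alone gave 37 higher and 111 lower in the control line, 33 and 49 in the shARVCF lines, and moved no count of calls by over 1.5 times. Leaving out each library in turn gave 11.5% to 16.0% higher and 14% to 21.5% lower in the shARVCF lines. With the trend removed, the control-line change reversed for ZNF621 (0.44) and ZNF787 (-0.30), also with the block, and ZNF561 became lower between the lines under drug (-0.43). Some uncalled changes reversed. ZNF519 between the lines under drug was 0.15 with a pseudocount of 0.1, and -1.25 to 1.23 with single libraries left out. Leaving out single libraries also gave -1.04 to 0.059 for ZNF320 and -0.091 to 0.62 for ZNF761 in the shARVCF lines. Of the values of single genes, 1491 kept direction and call, 49 lost the call, 1 gained it and 12 reversed. The cause was not tested. Without counts, depth is unknown and gives no interval for values near 0.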
